A study of Mus musculus with 2 samples.

Results

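Endothelial cells, which line the blood vessels, were studied in single-cell RNA sequencing of pancreatic tumours grown in mice. The tumours arose from KPC cells, which were derived from a mouse tumour of the pancreas and were mixed with Matrigel and placed in the pancreas of male mice. One library was of the FLOX genotype, in which the lactate transporter gene Slc16a1 (MCT1) is floxed but intact, and one of MCT1-KO, in which Cre recombinase had been switched on by tamoxifen. Cre was driven by the Col1a2 promoter, which is active in stellate cells and fibroblasts, so that the deletion was not aimed at endothelial cells. The C57BL/6 mice named in the methods were 8 weeks old. In the scheme of the tumour model, controls received corn oil in place of tamoxifen and tumours were collected 14 days after the injection of KPC cells, while the methods give a range of weeks. The age of the sequenced mice, the day on which their tumours were collected, what the FLOX animals received and whether several tumours were pooled in a library are not given in the sources used here. Tumours were dissociated, red cells were removed and unsorted cells were loaded, with removal of debris and dead cells left optional in the protocol. Genotype, animal and library cannot be told apart with 1 library a group, so that no test was run. Every interval printed here is a 95% interval for counting error only.

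A barcode was kept with at least 500 unique molecular identifiers (UMIs, single captured RNA molecules), 200 to 5000 detected genes and up to 8% of its UMIs from mitochondrial genes. A kept cell was called endothelial with at least 4 UMIs from at least 3 of the genes Pecam1, Cdh5, Kdr, Egfl7, Plvap, Flt1 and Emcn, no UMI of Ptprc, up to 2 UMIs of C1qa, C1qb and C1qc together and up to 1 UMI of Dcn and Lum together. Of 20428 kept cells, 154 met this rule. They were 64 of 8739 cells in the FLOX library (0.732%, interval 0.564–0.934) and 90 of 11689 in the MCT1-KO library (0.770%, interval 0.620–0.946). The libraries held 177334432 and 151118092 UMIs in all, of which the endothelial cells held 349842 and 409137. An endothelial cell held a median of 4542 UMIs and 1868.5 genes in FLOX and of 3488 UMIs and 1536.5 genes in MCT1-KO, beside 4061 and 3715 UMIs in the other kept cells. The median mitochondrial share was 1.81% and 2.38%. The 2 libraries shared 59 barcodes among kept cells and 0 among endothelial cells.

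The membership itself is a description of the genes that made it. The 7 rule genes gave a median of 31.5 UMIs a cell in FLOX (4 to 138) and 19 in MCT1-KO (4 to 143). All 7 were found in 30 and 28 cells. At the threshold, 5 cells in each library held exactly 4 of these UMIs, and 2 FLOX and 5 MCT1-KO barcodes missed it at 3 UMIs. With 3 of the genes, 5 and 8 cells were inside, and with 2 genes, 4 and 17 were outside. Before the other gates, 98 of 8739 FLOX and 102 of 11689 MCT1-KO kept cells carried the endothelial genes, a larger share in FLOX. The other gates removed 34 FLOX and 12 MCT1-KO barcodes of these, and a barcode could fail more than 1 gate. The order of the endothelial shares thus depended on the gates. No alternative relaxed the C1q gate or the Dcn and Lum gate, and the part of this unequal removal in differences between the libraries was not tested. In FLOX, 33 of the 34 had too many C1q UMIs and 13 too many Dcn and Lum UMIs, and in MCT1-KO 7 of the 12 failed each of these gates. These barcodes stayed among the other kept cells, with a median of 8778 and 6682 UMIs. Just inside the C1q gate lay 14 and 7 cells with 2 UMIs, and just outside 7 and 1 with 3 UMIs. Just inside the Dcn and Lum gate lay 15 and 10 cells with 1 UMI, and just outside 1 and 2 with 2 UMIs.

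Endothelial cells are held together by junctions built on VE-cadherin (Cdh5) and claudin-5 (Cldn5), and they sense vascular endothelial growth factor (VEGF) through the receptors Flt1, Kdr and Flt4. New vessels are led by tip cells that carry Dll4 and Esm1, while capillaries, arteries and veins each use further genes for exchange, flow and the entry of leukocytes. The endothelial programme is kept up by transcription factors of the ETS family, among them Erg and Fli1, whose binding sites are built around GGAA.

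The label was first checked against the genes the rule did not use. Adgrl4, an adhesion G protein-coupled receptor of endothelium (chr3:151437887-151545086, GRCm38), gave 174 UMIs in 47 FLOX cells and 209 in 65 MCT1-KO cells. Its level was 497 UMIs per 1000000 (CPM, interval 426–577) in FLOX endothelial cells and 511 (444–585) in MCT1-KO ones, beside 1.68 and 0.321 CPM in the other kept cells. It was therefore 296-fold (interval 231–382) and 1593-fold (1057–2496) higher in endothelial cells. The larger ratio in MCT1-KO came from the lower level in the other kept cells, among which stood the 34 FLOX and 12 MCT1-KO barcodes removed by the gates. With these barcodes left out, an alternative chosen after seeing the data, the smaller of the 2 ratios of Adgrl4 became 1002. Endoglin (Eng), a co-receptor for BMP ligands (chr2:32646595-32682669), gave 397 and 518 CPM and was 30.2-fold and 74.2-fold higher. Cldn5, the tight junction protein, gave 329 and 452 CPM and was 177-fold and 1078-fold higher.

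ETS factors are known to act at endothelial promoters. The 250 bases before each start site were therefore searched for AGGAAG on either strand, with promoters taken from RefSeq on GRCm38.p6. A gene was counted as holding the motif if any of its start sites did (32851 promoters in all). The number of start sites a gene has was not matched between the sets. Of 30 pan-endothelial genes outside the rule, 15 had an entry and 10 of these held the motif (66.7%, interval 38.4–88.2), beside 8734 of 27025 genes in all (32.3%). With the rule genes added, 13 of the 19 genes with an entry held it, out of 37. A match is a string of letters and not a measured binding site. Promoters of 4 genes whose values are described here are shown with the motif in capitals (AGGAAG, or CTTCCT where it lies on the other strand), 3 with the motif and 1 without. Adgrl4 (chr3:151437632-151437881, plus strand) holds 1 match near its start, Eng (chr2:32646345-32646594, plus strand) and Flt1 (chr5:147726012-147726261, minus strand) hold 2 each, and Cldn5 (chr16:18776597-18776846, plus strand) holds 0.
Adgrl4: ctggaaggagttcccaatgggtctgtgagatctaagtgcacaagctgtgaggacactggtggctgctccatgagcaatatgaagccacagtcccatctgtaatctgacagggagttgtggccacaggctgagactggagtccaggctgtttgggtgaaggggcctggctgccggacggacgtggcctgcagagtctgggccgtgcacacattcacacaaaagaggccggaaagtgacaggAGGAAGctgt
Eng: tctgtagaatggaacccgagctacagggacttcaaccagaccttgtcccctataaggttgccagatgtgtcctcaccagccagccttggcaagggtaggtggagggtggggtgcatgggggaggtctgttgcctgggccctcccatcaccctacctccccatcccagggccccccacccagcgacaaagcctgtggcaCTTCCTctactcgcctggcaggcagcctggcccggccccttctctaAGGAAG
Flt1: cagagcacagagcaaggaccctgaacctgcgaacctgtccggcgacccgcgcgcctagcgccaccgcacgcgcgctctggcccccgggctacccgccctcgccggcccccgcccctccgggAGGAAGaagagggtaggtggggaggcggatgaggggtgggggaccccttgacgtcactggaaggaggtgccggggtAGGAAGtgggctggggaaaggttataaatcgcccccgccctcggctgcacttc
Cldn5: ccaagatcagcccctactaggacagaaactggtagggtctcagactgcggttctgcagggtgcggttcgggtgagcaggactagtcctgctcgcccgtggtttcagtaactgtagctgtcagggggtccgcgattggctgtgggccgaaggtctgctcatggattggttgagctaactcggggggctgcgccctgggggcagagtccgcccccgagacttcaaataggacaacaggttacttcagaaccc

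Among 2568 genes with at least 50 endothelial UMIs over both libraries, 543 (21.1%) were at least 2-fold higher in endothelial than in other kept cells in both libraries, and 64 (2.49%) were at least 2-fold lower. The 543 include the 7 rule genes, and without these they were 536 of 2561. Since the minimum was set on endothelial UMIs, a gene that is high elsewhere and scarce in endothelium could not be counted as lower, and none of the fibroblast, T and B cell and neutrophil genes was ranked. Of the 543, 203 were at least 10-fold and 57 at least 100-fold higher in both. The median ratio over all 2568 genes was 1.22 in FLOX and 1.12 in MCT1-KO. All 27 ranked genes of the 30 on the pan-endothelial list were among the 543, with median ratios of 121 and 423. A gene scarce elsewhere could be ranked only through its endothelial UMIs, and the lists were chosen with earlier results of these data known. The counts of list members among the 543, here and below, were thus partly set in advance. They stand beside 21.1% of all ranked genes. The remaining 3, Tal1, Sox18 and Bcl6b, had too few UMIs to be ranked.

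The 12 genes outside the rule with the largest smaller ratio of the 2 libraries were Ccdc85a, Col13a1, Cd300lg, Sox17, Adgrl4, Prex2, Depp1, Gpihbp1, Mmrn2, Sox7, Ptprb and Myct1. Gpihbp1, which carries lipoprotein lipase to the capillary surface (chr15:75596628-75599481), gave 373 UMIs in 50 FLOX cells and 580 in 73 MCT1-KO cells. This was 1066 CPM beside 3.88 CPM in other kept cells in FLOX, and 1418 beside 1.07 in MCT1-KO. Ptprb, a phosphatase that holds back the receptor Tie2, gave 489 and 635 CPM, 265-fold and 1052-fold above the other kept cells. The SoxF transcription factors Sox17 and Sox7, which steer vessel growth, gave 172 and 103 CPM and 237 and 139 CPM. Sox17 was 298-fold and 925-fold higher, and Sox7 267-fold and 565-fold. Myct1, a membrane protein of endothelium, gave 352 and 164 CPM and was 258-fold and 1328-fold higher. The matrix protein Mmrn2 gave 220 CPM in both libraries. Ccdc85a, the first of the 12, rested on 57 and 34 UMIs and was 396-fold (244–662) and 963-fold (420–2573) higher. Col13a1, a membrane collagen, rested on 17 and 43 UMIs. The sizes and the order of these ratios depended on the barcodes removed by the gates. With these left out of the other kept cells, the smaller ratio went from 275 to 1371 for Gpihbp1, from 298 to 1296 for Sox17, from 396 to 1121 for Ccdc85a, from 258 to 1012 for Myct1 and from 267 to 705 for Sox7, and the lowest of the 12 was Prex2 at 315.

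Other general endothelial genes stood in the same range. The ETS factor Erg gave 283 and 303 CPM, 124-fold and 492-fold above the other kept cells, whereas Fli1, which blood cells also use, was 7.25-fold and 13.2-fold higher. Tie1, an angiopoietin co-receptor, gave 189 and 171 CPM at 239-fold and 816-fold. Nos3, which makes nitric oxide, gave 114 and 115 CPM at 118-fold and 423-fold. The junction protein Esam gave 380 and 401 CPM, and the adrenomedullin receptor partner Ramp2 709 and 660 CPM.

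**Figure D1:**
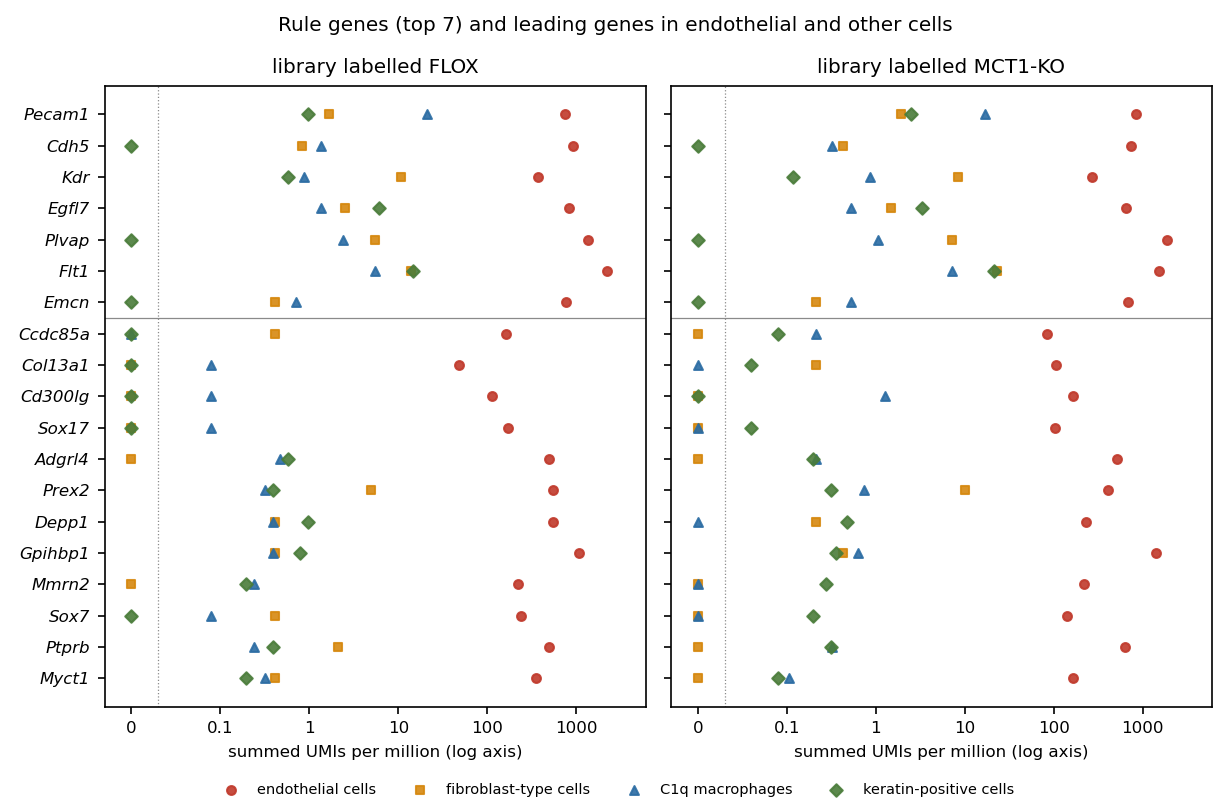
Level (CPM, log axis) of the 7 rule genes and the 12 leading genes in endothelial, fibroblast-type, C1q macrophage and keratin-positive cells. Values of 0 are drawn at the left edge. Each library has its own panel and each cell group its own symbol. The rules of the other groups limited Cdh5, Emcn or Plvap. The leading gene Adgrl4 stands at 497 and 511 CPM in endothelial cells and at 0 in fibroblast-type cells of both libraries.

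The endothelial level of these genes was also compared with 3 named groups of other cells. The groups were fibroblast-type cells (170 FLOX and 370 MCT1-KO), C1q macrophages (1838 and 1600) and keratin-positive cells (524 and 1902), each chosen by marker UMIs. Their rules also limited UMIs of Cdh5 and Emcn, and of Plvap outside C1q macrophages. Low endothelial RNA in these groups was thus partly set in advance. Gpihbp1 stood at 0.415 and 0.425 CPM in fibroblast-type cells, 0.393 and 0.640 in C1q macrophages and 0.775 and 0.357 in keratin-positive cells. Sox17 stood at 0 in fibroblast-type cells of both libraries. Prex2 stood highest outside endothelium among the 12, with 4.98 and 9.997 CPM in fibroblast-type cells, beside 546 and 408 CPM in endothelial cells.

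RNA of other cell types was found in the endothelial cells at levels that differed between the lists. The 10 macrophage genes summed to 895 CPM in FLOX and 640 in MCT1-KO endothelial cells, beside 57528 and 60385 CPM in C1q macrophages. The membership rule limited C1qa, C1qb and C1qc of this list, and the C1q genes also defined the C1q macrophages. The rule likewise limited Dcn and Lum of the fibroblast list and Ptprc of the T and B cell list. These sums were thus partly set in advance. The 10 mural cell genes, of pericytes and smooth muscle that wrap the vessel, summed to 145 and 189 UMIs (414 and 462 CPM), which was 0.557-fold and 0.686-fold of the other kept cells. Of these, the pericyte gene Rgs5 gave 35 UMIs in 3 FLOX cells and 42 in 13 MCT1-KO cells. The 10 fibroblast genes gave 53 and 49 UMIs, the 10 tumour epithelial genes 42 and 122, the 10 T and B cell genes 7 and 4, the 6 neutrophil genes 22 and 48 and the 6 platelet genes 10 and 3. The red cell genes gave 2 and 422 UMIs, 382 of the latter in 1 cell, which put MCT1-KO at 1031 CPM beside 4.83 CPM in the other kept cells. Acinar genes stood at 97.2 and 1290 CPM and are taken up with the genes that were highest in MCT1-KO. The Y-linked gene Ddx3y gave 43 and 47 UMIs (123 and 115 CPM), beside 3.29 and 2.06 CPM in keratin-positive cells, and Xist gave 0 UMIs in both.

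Most endothelial cells met the cuts for capillary genes and for sprouting genes. A cell was counted for a vessel list with at least 2 UMIs from at least 2 of its genes, and each cell was also thinned to 1000 UMIs (62 FLOX and 83 MCT1-KO cells deep enough) so that depth was equal. The capillary genes were met by 62 of 64 FLOX and 87 of 90 MCT1-KO cells (96.9% and 96.7%). After thinning, 77.4% (interval 65.0–87.1) and 83.1% (73.3–90.5) met them, beside 0.394% and 0.806% of keratin-positive cells. The tip and sprouting genes, a list that also holds Col4a1 and Lama4 of the basement membrane, were met by 60 and 75 cells (93.8% and 83.3%). After thinning 72.6% (59.8–83.1) and 66.3% (55.1–76.3) met them, beside 3.16% and 0.967% of keratin-positive cells. In fibroblast-type cells the tip and sprouting cut was met by 81.2% and 65.1% with all UMIs and by 10.6% and 7.07% after thinning. Before thinning, the median depth was 15227.5 and 13014 UMIs in fibroblast-type cells and 7493.5 and 14694.5 UMIs in keratin-positive ones. Both lists were met by 59 FLOX and 73 MCT1-KO cells with all UMIs and by 38 of 62 (61.3%, interval 48.1–73.4) and 45 of 83 (54.2%, 42.9–65.2) after thinning. Since each list alone was met by most cells, this overlap was not read as a link between them. The lists named overlapping ranges and not separate cell types.

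The capillary genes were led by Fabp4, a fatty acid binding protein, with 1296 UMIs in 63 FLOX cells and 1782 in 78 MCT1-KO cells. Fabp4 stood at 3704 and 4356 CPM and was 103-fold and 73.1-fold above the other kept cells. Of the 10 capillary genes, 7 were ranked and all 7 were among the 543, which the minimum of endothelial UMIs partly set in advance. Gpihbp1 was found in 50 and 73 cells, Fabp4 in 63 and 78 and Plvap, the protein of fenestral diaphragms, in 56 and 83. Gpihbp1 was found with Fabp4 in 49 of 64 and 65 of 90 cells, and with Plvap in 47 and 67. Each gene alone was in most cells, so that these overlaps were not read as a link. Car4, a carbonic anhydrase of capillaries, gave 15 and 2 UMIs, and Tmem100 gave 1 and 0.

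The tip and sprouting genes held 11 ranked members of 16, and all 11 were among the 543, which the same minimum partly set in advance. Esm1, which tip cells secrete (chr13:113209659-113218098), was 357-fold (237–548) and 173-fold (91.8–325) above the other kept cells. The Notch ligand Dll4 stood at 134 and 80.7 CPM, 178-fold and 204-fold higher. Angpt2, which loosens vessels for sprouting, gave 34 UMIs in 9 FLOX cells and 60 in 27 MCT1-KO cells and was 77.7-fold and 177-fold higher. Igfbp3, a binding protein for insulin-like growth factors, gave 1561 and 1146 CPM at 72.6-fold and 86.3-fold. The list also holds the basement membrane genes Col4a1 and Lama4. It summed to 4702 CPM in FLOX and 3703 in MCT1-KO, much of it from Igfbp3 and Col4a1. Esm1 was found in 17 of 64 FLOX and 7 of 90 MCT1-KO cells and Dll4 in 22 of each. Both were found together in 8 and 5 cells, and Esm1 with Gpihbp1 in 16 and 6 cells.

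**Figure D2:**
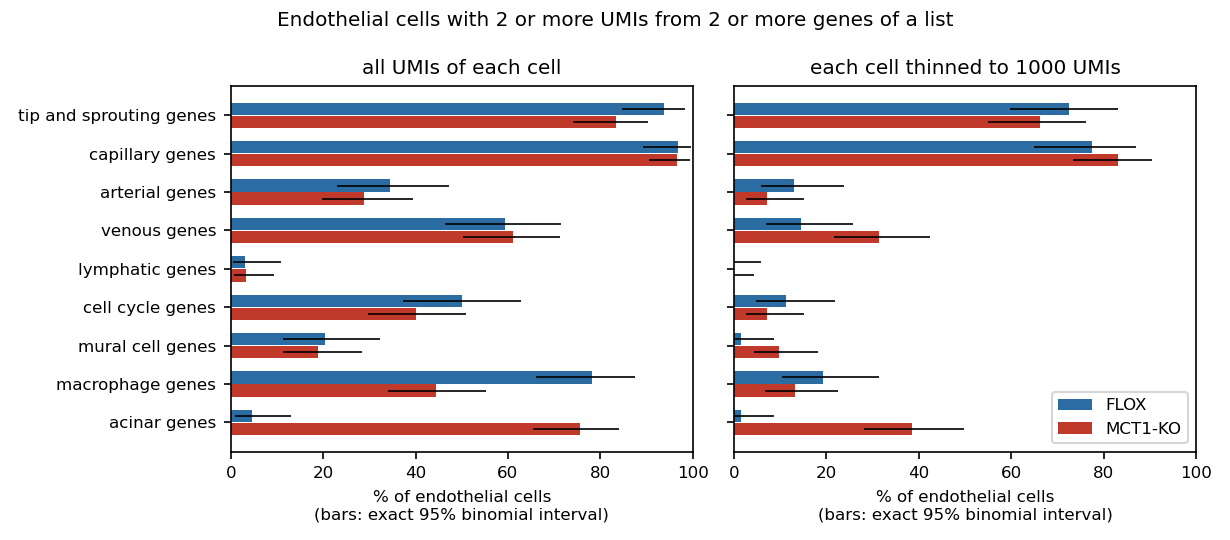
Share of endothelial cells (percent, with exact 95% binomial intervals) with at least 2 UMIs from at least 2 genes of each list, with all UMIs and after thinning to 1000 UMIs, in each library. Venous genes went from 59.4% and 61.1% with all UMIs to 14.5% and 31.3% after thinning, and capillary genes from 96.9% and 96.7% to 77.4% and 83.1%.

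Venous genes were met by 38 FLOX and 55 MCT1-KO cells (59.4% and 61.1%), after thinning by 14.5% (6.86–25.8) and 31.3% (21.6–42.4). The same cut was met after thinning by 5.30% and 8.08% of C1q macrophages, 1.58% and 1.45% of keratin-positive cells and 6.47% and 11.1% of fibroblast-type cells. With all UMIs, 74.1% and 75.7% of fibroblast-type cells met it, more than of endothelial cells. Of 10 venous genes, 6 were ranked and 3 were among the 543. Selp, P-selectin, on which leukocytes roll (chr1:164115264-164150026), was 203-fold and 296-fold above the other kept cells and was held by few cells. It gave 56 UMIs in 7 FLOX cells, 91.1% of them in 3 cells, and 127 UMIs in 17 MCT1-KO cells, 78.7% in 3 cells. Selp was found with Lrg1, a secreted glycoprotein that promotes vessel growth, in 5 and 15 cells, with Vwf, the clotting factor carrier, in 4 and 8 cells, and with Esm1 in 1 and 0 cells. By themselves Lrg1 was found in 37 and 67 cells, Vwf in 28 and 30 and Esm1 in 17 and 7. Ackr1, a chemokine-binding receptor of venules, gave 6 UMIs in 1 FLOX cell and 8 in 5 MCT1-KO cells.

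Arterial genes were met by 22 and 26 cells (34.4% and 28.9%), after thinning by 12.9% (5.74–23.9) and 7.23% (2.70–15.1), beside 0.197% and 0.107% of keratin-positive cells. The gap junction gene Gja5 gave 1 and 0 UMIs, and Gja4 gave 16 UMIs in 5 cells and 21 in 10 cells. Lymphatic genes were met by 2 and 3 cells before thinning, and after it by 0 of 62 and 0 of 83. This allows up to 5.78% and 4.35% of cells to meet the cut at this depth (exact binomial limits) and sets no limit on the share of lymphatic cells. Prox1, the master regulator of lymphatic endothelium, gave 5 UMIs in 1 FLOX cell and 0 in MCT1-KO, and it was never found with Flt4 in the same cell. Flt4 itself, which blood vessels of tumours can also carry, gave 12 and 18 UMIs.

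Of the 20 VEGF, angiopoietin and Notch genes, 11 were ranked and 8 were among the 543. Flt1 gave 770 and 619 UMIs and was 139-fold and 78.3-fold above the other kept cells, and Kdr gave 129 and 109 UMIs at 113-fold and 179-fold, both being rule genes. The Angpt2 receptor Tek (Tie2) was 102-fold and 694-fold higher, at 65.7 and 85.5 CPM. The co-receptor Nrp1 was 2.17-fold and 1.35-fold higher. The ligand Vegfa was nearly absent, with 3 and 2 UMIs. Notch1 was 3.73-fold and 5.23-fold higher, and Notch4, with 22 and 20 UMIs, 23.5-fold and 30.7-fold.

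Of the genes of BMP and TGF-beta signalling, 9 of 13 were ranked and 4 were among the 543, namely Eng, Acvrl1, Bmpr2 and Id1. The endothelial type I receptor Acvrl1 (ALK1) was 5.71-fold and 9.37-fold higher, and Bmpr2 5.66-fold and 4.07-fold. The target Id1 stood at 277 and 376 CPM, 2.34-fold and 2.41-fold above the other kept cells.

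Basement membrane genes were high in endothelial cells, and 9 of 12 ranked among 13 were in the 543. The list summed to 11248 and 10512 CPM, beside 1627 and 1486 CPM in all other kept cells. In fibroblast-type cells it was much closer, at 5554 and 4556 CPM. The collagen IV chains Col4a1 and Col4a2, the core of the membrane, gave 1475 and 1562 CPM and 1884 and 2163 CPM. They were 13.7-fold and 13.1-fold, and 16.0-fold and 15.6-fold, above the other kept cells. The laminin chain Lama4 was 48.4-fold and 43.2-fold higher. Nid1 was 21.6-fold and 26.8-fold higher. Sparc, a collagen-binding protein, gave 5937 and 5015 CPM in endothelial cells, beside 4489 and 3390 CPM in fibroblast-type cells. Igfbp7, listed among the stalk and immature vessel genes, gave 9633 and 9559 CPM at 11.99-fold and 13.4-fold. Of that list's 10 genes, 9 were ranked and 7 were among the 543. It summed to 17122 and 16048 CPM, beside 7549 and 6018 CPM in fibroblast-type cells.

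Most barrier genes were high in endothelial cells. Of 14, 11 were ranked and 10 were among the 543, with Jam2 at 78.3-fold and 100-fold, the exporter Abcb1a at 21.6-fold and 29.5-fold and the prostaglandin transporter Slco2a1 at 18.6-fold and 21.1-fold. Mfsd2a, a lipid transporter of the blood-brain barrier, and occludin (Ocln) gave 0 UMIs in both libraries. Of the 13 coagulation genes, 5 were ranked and 2, Vwf (121-fold and 152-fold) and the ectonucleotidase Entpd1 (2.04-fold and 5.36-fold), were among the 543.

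Most immune genes were at the level of the other kept cells or below it, unlike the leukocyte adhesion genes, of which 5 of 7 ranked members among 12 were in the 543. MHC class I genes were near the level of the surrounding cells, with 0 of 8 ranked members in either set. B2m, the light chain of class I, stood at 5102 and 3241 CPM, 1.25-fold and 1.16-fold above the other kept cells. MHC class II genes were lower, and Cd74, H2-Aa, H2-Ab1 and H2-Eb1, 4 of 5 ranked, were among the 64. H2-Ab1 stood at 263 and 120 CPM, beside 5137 and 2927 CPM in C1q macrophages. The costimulatory genes Cd80, Cd86 and Icosl gave 0 UMIs in both libraries, so that each was below 3 UMIs of 349842 and of 409137. Among 12 chemokine genes 6 were ranked, of which Cxcl12, the ligand of Cxcr4, was 53.5-fold and 9.44-fold higher in endothelial cells. The neutrophil attractants Cxcl1 and Cxcl2 were among the 64. Of 15 interferon response genes 7 were ranked and 1, Iigp1, was among the 543 (2.38-fold and 2.13-fold).

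Slc16a1, the gene floxed in these mice (chr3:104638668-104658462), was scarcely found in endothelial cells of either library. It gave 3 UMIs in FLOX and 4 in MCT1-KO, which was 8.58 CPM (1.77–25.1) and 9.78 CPM (2.66–25.0). The ratio of MCT1-KO over FLOX was 1.14 (0.193–7.78), so that a difference was not detectable at this depth. In fibroblast-type cells, where Cre was aimed, the level was 30.7 and 43.2 CPM, and in keratin-positive cells 31.8 and 46.1 CPM. Whether UMIs of this 3' kit come from the deleted part of the gene is not given in the sources used here, so that the level of Slc16a1 was not taken as a check of the genotype label. The exporter Slc16a3 (MCT4) gave 10 and 2 UMIs and Slc16a7 (MCT2) 0 and 0. Lactate dehydrogenase Ldha stood at 394 and 330 CPM, 0.623-fold and 0.521-fold of the other kept cells. Of 18 lactate, glycolysis and hypoxia genes 9 were ranked, and only Epas1 (HIF-2alpha), a hypoxia factor typical of endothelium, was among the 543, at 28.2-fold and 24.0-fold. Between the libraries the summed list gave 0.855 (0.781–0.936), beside 0.968 in the other kept cells, and none of the 9 differed by 2-fold.

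Between the libraries, the endothelial cells of MCT1-KO were at least 2-fold higher for 62 of 2568 genes (2.41%) and at least 2-fold lower for 98 (3.82%). The counting interval of the ratio excluded 1 for each of these genes. The minimum of endothelial UMIs and the 2-fold limit together bring this about, so that the intervals add no support to the calls. The median ratio of MCT1-KO over FLOX was 0.948 over the 2568 genes, beside 1.03 in the other kept cells. In the other kept cells, 45 of the 62 (72.6%) were above 1 as well, beside 57.2% of all 2568 genes, and 82 of the 98 (83.7%) were below 1, beside 42.8%. A 2-fold difference in the same direction was found there for 13 of the 62 (21.0%, beside 0.662% of all) and 31 of the 98 (31.6%, beside 4.52%). Genes of the 543 made up 11 of the 62 (17.7%) and 31 of the 98 (31.6%), beside 21.1% of all. In 4 of the 62 and 2 of the 98, a single cell held at least as many UMIs as all others of the higher library together.

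**Figure D3:**
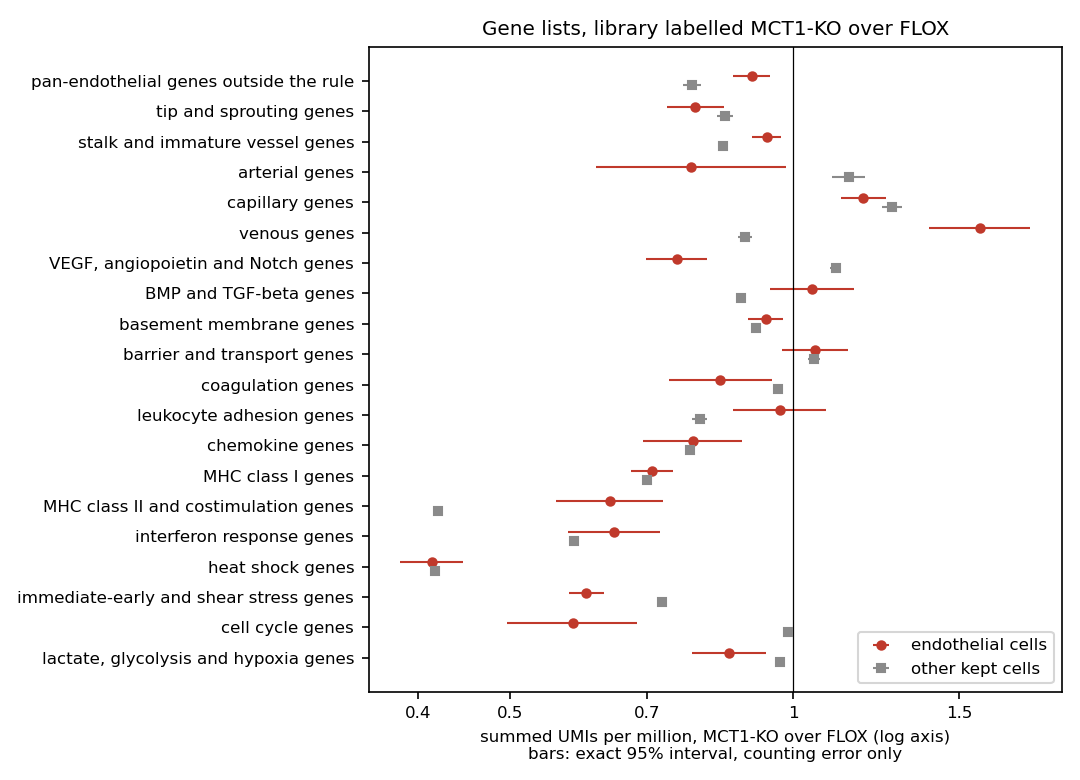
Ratio of summed CPM, MCT1-KO over FLOX, for 20 gene lists in endothelial cells and in the other kept cells, with exact 95% counting intervals on a log axis. Heat shock genes stand at 0.414 and 0.417, immediate-early genes at 0.603 and 0.725 and venous genes at 1.58 and 0.890. The other kept cells include the barcodes with endothelial genes that the gates removed, more of them in FLOX.

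Heat shock genes, which encode chaperones that refold proteins after stress, were lower in MCT1-KO in endothelial cells, as they were in the other kept cells. Of 10 ranked members 9 were at least 2-fold lower, with a median ratio of 0.377 beside 0.370 in the other kept cells. The sum of the list gave 0.414 (0.383–0.447) in endothelial cells and 0.417 elsewhere. Hspa1a, the inducible Hsp70, gave 231 UMIs in 42 of 64 FLOX cells and 7 UMIs in 5 of 90 MCT1-KO cells. Its level was 660 CPM (578–751) and 17.1 CPM (6.88–35.3), a 38.6-fold (18.4–97.1) difference beside 15.8-fold in the other kept cells. Hsph1 was 17.2-fold (6.39–65.4) and Hspa1b 14.5-fold (5.89–46.2) lower, beside 11.04-fold and 7.93-fold elsewhere. Hspa1a and Hspa1b are near-identical copies, and how reads were split between them is not given in the sources used here. Hspb1, a small heat shock protein, was the single member also among the 543, with 1246 and 445 CPM. Hspa8, the constitutive Hsp70, was 1.46-fold lower (1.29–1.65) and thus not past the 2-fold limit.

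Immediate-early genes, which answer stimulation within minutes, had 6 of 13 ranked members at least 2-fold lower and a summed ratio of 0.603 (0.578–0.629) beside 0.725 in the other kept cells. The members past it were Fos, Jun, Atf3, Klf2, Klf6 and Zfp36. Atf3 went from 1695 to 611 CPM, 2.77-fold lower (2.39–3.23) beside 1.63-fold elsewhere. Klf2, which laminar flow induces in endothelium, went from 1263 to 623 CPM, 2.03-fold lower (1.73–2.37) beside 1.45-fold elsewhere. Klf4, its close relative, gave a ratio of 0.915, and Fosb and Junb gave 1.05 and 0.971. The part of these genes in the other differences was not tested.

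Of the 11 ranked tip and sprouting genes, Esm1, Adm and Lama4 were at least 2-fold lower in MCT1-KO and none was at least 2-fold higher. The whole list, much of it Igfbp3 and Col4a1, summed to a ratio of 0.788 (0.734–0.845) beside 0.846 in the other kept cells. The median of the 11 was 0.576 beside 0.618. With each cell given the same weight the list gave 0.971. Esm1 gave 74 UMIs in 17 FLOX cells, 28 of them in 1 cell, and 21 UMIs in 7 MCT1-KO cells. Its level was 212 CPM (166–266) and 51.3 CPM (31.8–78.5), 4.12-fold lower (2.51–7.05). Dll4 gave a ratio of 0.6004 (0.373–0.957), whereas Angpt2 gave 1.51 (0.975–2.37). The list turned to 1.18 and Esm1 to 0.783 when 14 FLOX and 16 MCT1-KO cells with more than 2 mural or red cell UMIs were left out, an alternative chosen after seeing the data.

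The VEGF, angiopoietin and Notch list summed to 0.752 (0.698–0.810) beside 1.11 elsewhere, and none of its 11 ranked genes passed the 2-fold limit. The rule genes Flt1 and Kdr held 899 of its 1514 FLOX and 728 of its 1332 MCT1-KO UMIs, and without them it gave 0.840 (0.749–0.941). Flt1 gave 0.687 (0.617–0.765) and Kdr 0.723 (0.555–0.940), while Flt1 gave 1.22 in the other kept cells. The stalk list summed to 0.937 (0.905–0.971), with Aplnr as its single member past the limit. The apelin receptor Aplnr went from 111 to 39.1 CPM, 2.85-fold lower (1.56–5.46). The Notch target Hey1, with 27 and 7 UMIs and so not ranked, went from 77.2 to 17.1 CPM, 4.51-fold lower (1.92–12.3). The basement membrane list gave 0.935 (0.895–0.976). Of its 12 ranked genes 1, Lama4, was at least 2-fold lower and 0 were at least 2-fold higher, and its collagens Col4a1 and Col4a2 gave 1.06 and 1.15. The BMP and TGF-beta list gave 1.05 (0.944–1.16), the barrier list 1.06 (0.974–1.14) and the arterial list 0.779 (0.617–0.983) beside 1.14 elsewhere.

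Of the 6 ranked venous genes, 1 was at least 2-fold higher in MCT1-KO endothelial cells (Icam1) and 1 at least 2-fold lower (Vcam1). The list summed to a ratio of 1.58 (1.40–1.79) beside 0.890 in the other kept cells, and Lrg1 and Selp held 343 and 127 of its 738 MCT1-KO UMIs. Lrg1 (chr17:56119678-56122001) gave 155 UMIs in 37 FLOX cells and 343 in 67 MCT1-KO cells. Its level was 443 CPM (376–519) and 838 CPM (752–932), a ratio of 1.89 (1.56–2.30) beside 1.95 in the other kept cells. Selp stood at 160 CPM (121–208) and 310 (259–369), a ratio of 1.94 (1.41–2.71), with 20 of 56 and 54 of 127 UMIs in 1 cell. Nr2f2, the transcription factor of venous identity, gave 12 and 33 UMIs and so was not ranked. Its ratio was 2.35 (1.18–5.0). Icam1, a ligand for leukocyte integrins, went from 77.2 CPM (50.9–112) to 210 (168–260), a ratio of 2.72 (1.75–4.37) beside 0.614 elsewhere. Vcam1 went the other way, 2.05-fold lower (1.35–3.16), and so did Icam2, which is carried by resting endothelium, from 257 to 92.9 CPM (2.77-fold lower, 1.88–4.16). The summed leukocyte adhesion list gave 0.967 (0.863–1.08). With a looser rule of 2 UMIs from 2 rule genes, the venous ratio fell below 1, to 0.836.

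Capillary genes gave a summed ratio of 1.19 (1.12–1.25) beside 1.27 in the other kept cells, and none of the 7 ranked genes passed the 2-fold limit. Gpihbp1 gave 1.33 (1.17–1.52), Rgcc 1.39 (1.14–1.70) and Fabp4 1.18 (1.09–1.26). In the other kept cells Gpihbp1 gave 0.276, but these cells hold the 34 FLOX and 12 MCT1-KO barcodes removed by the gates. The part of those barcodes in this value was not tested. Of the 1782 Fabp4 UMIs in MCT1-KO, 318 lay in 1 cell. Cd36, a fatty acid receptor, gave 0.661 (0.482–0.903). The direction of the capillary list was not stable, since it gave 0.899 without an upper limit on genes and 0.678 under the looser rule. Plvap gave 1.40 (1.24–1.57), Cldn5 1.38 (1.08–1.75) and Ptprb 1.30 (1.07–1.59), while Myct1 and Depp1 were 2.15-fold (1.58–2.94) and 2.35-fold (1.83–3.04) lower. The whole pan-endothelial list summed to 0.903 (0.863–0.945) and the rule genes to 0.917 (0.868–0.968).

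**Figure D4:**
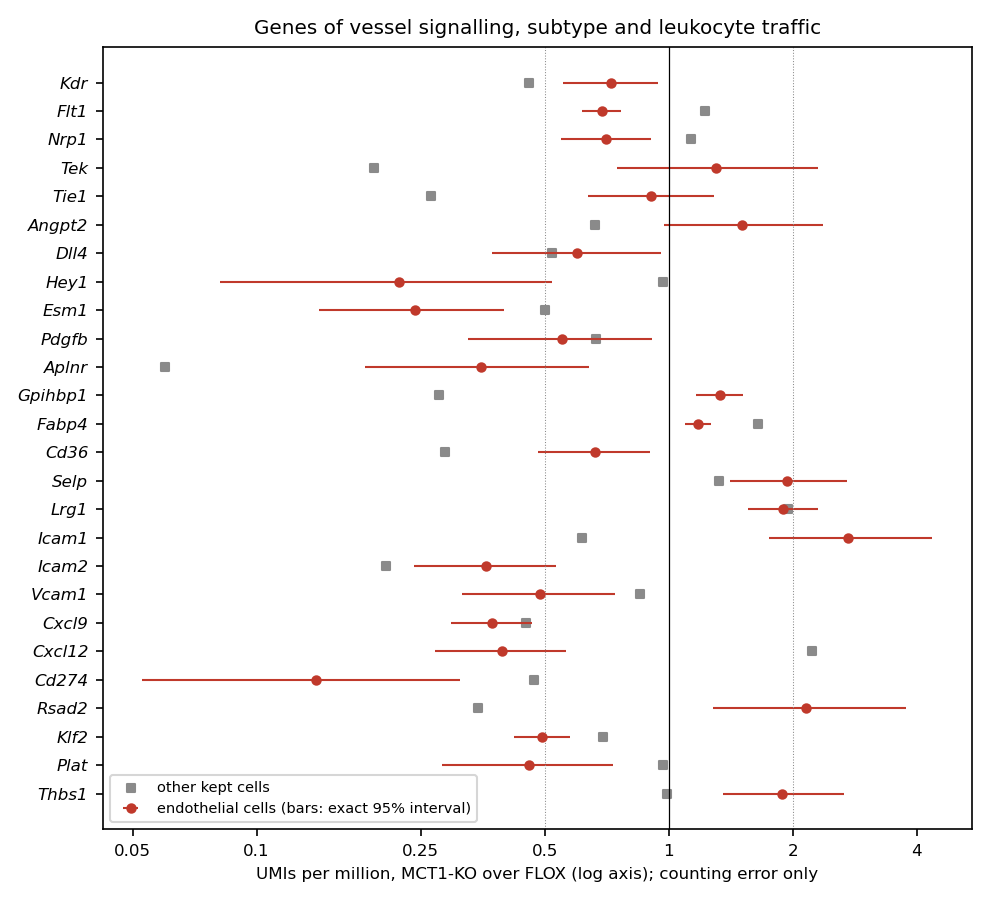
Ratio of MCT1-KO over FLOX (log axis) for 26 genes in endothelial cells, with exact 95% counting intervals, and the same ratio in the other kept cells. Icam1 stands at 2.72 in endothelial cells and 0.614 elsewhere, and Cxcl12 at 0.393 and 2.23. The other kept cells include the barcodes with endothelial genes that the gates removed, more of them in FLOX.

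The interferon and antigen presentation lists summed to ratios below 1 in endothelial and in other kept cells, while most of their ranked members were within the 2-fold limit. The interferon response list summed to 0.646 (0.577–0.722) beside 0.585, and of 7 ranked genes 2 were at least 2-fold lower and 1 higher, with Bst2 2.20-fold lower beside 2.46-fold. Rsad2, an antiviral enzyme, went the other way at 2.16 (1.28–3.77), with 23 of its 53 MCT1-KO UMIs in 1 cell. MHC class I genes summed to 0.708 (0.672–0.745) beside 0.699, and none of 8 passed the 2-fold limit. MHC class II and costimulation genes summed to 0.639 (0.560–0.728) beside 0.420, and 2 of 5 were at least 2-fold lower, H2-Ab1 (2.20-fold) and Cd274. Summed macrophage genes, which include the C1q genes limited by the rule, gave 0.716 (0.605–0.846) in the same endothelial cells. Their part in the class II values was not tested.

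Cd274, which encodes the checkpoint ligand PD-L1, was the fourth lowest gene of the 2568 by ratio. It gave 43 UMIs in 13 FLOX cells, 18 of them in 1 cell, and 7 UMIs in 6 MCT1-KO cells. This was 123 CPM (89.0–166) and 17.1 CPM (6.88–35.3), 7.18-fold lower (3.20–18.9) beside 2.12-fold in the other kept cells. C1q macrophages stood at 130 and 97.4 CPM. Cd274 was found with the T cell attractant Cxcl9 in 8 FLOX and 4 MCT1-KO cells. By itself Cxcl9 was found in 22 and 16 cells, depth was not made equal, and the overlap was not read as a link. Cxcl9 itself went from 740 to 276 CPM, 2.68-fold lower (2.14–3.37) beside 2.21-fold elsewhere. Over the alternatives tried, the ratio of Cd274 stayed between 0.103 and 0.171.

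Of the 6 ranked chemokine genes, Cxcl9 and Cxcl12 were lower and Cxcl2 higher by over 2-fold. The list summed to 0.782 (0.693–0.882) beside 0.777. Cxcl10, which attracts T cells as Cxcl9 does, gave 74 and 78 UMIs and a ratio of 0.901 (0.647–1.26). Cxcl12 went from 286 to 112 CPM in endothelial cells, 2.54-fold lower (1.78–3.69), but was 2.23-fold higher in the other kept cells and went from 43.6 to 145 CPM in fibroblast-type cells. Cxcl2 went from 174 to 416 CPM, a ratio of 2.38 (1.77–3.25), with 65 of its 170 MCT1-KO UMIs in 1 cell. Csf3, a growth factor for neutrophils, gave 0 UMIs in FLOX and 13 in 5 MCT1-KO cells, 7 of them in 1 cell. It was not ranked, and with FLOX set to a floor of 3 UMIs its ratio was 3.71.

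**Figure D5:**
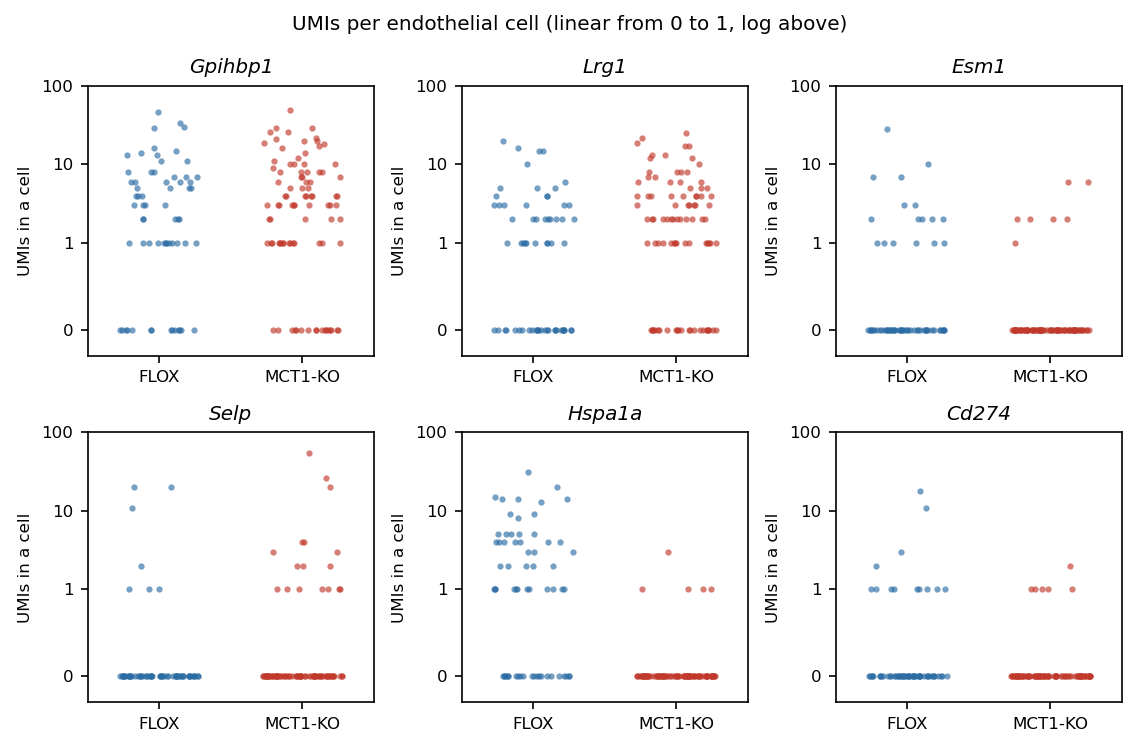
UMIs per endothelial cell of Gpihbp1, Lrg1, Esm1, Selp, Hspa1a and Cd274, each point 1 cell (64 FLOX and 90 MCT1-KO). Gpihbp1 was found in 50 and 73 cells and Hspa1a in 42 and 5, whereas Selp lay in 7 and 17 cells with up to 20 and 54 UMIs in 1 cell.

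Coagulation genes summed to 0.837 (0.738–0.948) beside 0.963 elsewhere. Of 5 ranked members 2 were at least 2-fold lower and 0 at least 2-fold higher. Plat, the tissue plasminogen activator, was 2.18-fold lower (1.36–3.55). Thbs1, an inhibitor of vessel growth, gave 1.89 (1.35–2.66). Cell cycle genes summed to 0.583 (0.497–0.683) beside 0.986, and this rested on few cells, since 1 FLOX cell held 135 of 393 UMIs and 1 MCT1-KO cell 92 of 268. Ube2c gave 55 UMIs in 8 FLOX cells, 38 of them in 1 cell, and 12 UMIs in 1 MCT1-KO cell, and its ratio of 0.187 became 0.925 without an upper limit on genes.

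Of the 10 lowest genes by ratio, Hspa1a, Hsph1, Hspa1b, Cd274, Ube2c and Esm1 are described above. Rbp7, a retinol-binding protein, gave 57 UMIs in 18 FLOX cells and 14 in 11 MCT1-KO cells, 4.76-fold lower (2.62–9.25), and was 254-fold and 396-fold above the other kept cells. Dach1, a transcription factor of coronary and other arteries, gave 133 and 36 UMIs, 42 of the former in 1 cell, and was 4.32-fold lower (2.97–6.43). Mllt3 and Tmx4, which stood at 1.36-fold and 0.325-fold and at 2.25-fold and 0.834-fold of the other kept cells, were 4.29-fold (2.23–8.92) and 4.06-fold (2.41–7.17) lower.

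Most of the 10 highest genes by ratio are known from other cells. Hbb-bs, a haemoglobin chain, gave 1 and 338 UMIs (ratio 289, 51.5–11449), with 327 of them in 1 cell, and without each library's highest cell it gave 3.14 against a floor of 3 UMIs in FLOX. Prss2, Ctrb1, 2210010C04Rik, Clps and Try5 belong to the acinar cells of the pancreas. The 10 acinar genes gave 34 UMIs in FLOX and 528 in MCT1-KO endothelial cells, 97.2 and 1290 CPM, a ratio of 13.3 (9.38–19.4). In barcodes of 10 to 100 UMIs, taken as free RNA, the same genes stood at 345 and 18303 CPM. Ctrb1 went from 22.9 to 352 CPM in endothelial cells and from 138 to 1006 in the other kept cells. After thinning, 1.61% and 38.6% of endothelial cells met the acinar cut, as did 1.38% and 36.8% of C1q macrophages. When a free RNA profile scaled by the macrophage genes Lyz2, Tyrobp and Fcer1g was subtracted, Prss2 gave a ratio of 14.6, Ctrb1 6.93, 2210010C04Rik 5.32, Try5 3.72 and Clps 2.08.

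The other 4 were Mgp, Ankrd1, Fst and S100a4. Mgp, an inhibitor of BMP signalling and calcification, gave 29 UMIs in 24 FLOX cells and 239 in 44 MCT1-KO cells, up to 54 in 1 cell. Its ratio was 7.05 (4.78–10.8) beside 2.05 in the other kept cells, and over the alternatives tried it went from 2.88 without the cells with mural or red cell UMIs to 42.3 with free RNA scaled by acinar genes subtracted (16.9 when scaled by Lyz2, Tyrobp and Fcer1g). Mgp also went from 2988 to 5960 CPM in fibroblast-type cells and from 908 to 1802 CPM in free RNA. Ankrd1 and Fst lay mostly in 1 MCT1-KO cell, with 53 of 55 and 56 of 85 UMIs, and S100a4 had 119 of 234 in 1 cell. All 3 turned or reached 1 when the cells with mural or red cell UMIs were left out, at 0.0876, 0.467 and 0.988. With free RNA scaled by acinar genes subtracted they went up instead, to 11.9, 17.8 and 31.9, and without likely doublets Fst gave 8.22. Without each gene's highest cell they gave 0.214, 2.07 and 2.29.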

How the data were processed

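Single-cell 3' RNA libraries were analysed, 1 of FLOX and 1 of MCT1-KO. The values are raw UMI counts per gene and barcode, deposited by the authors as matrices of 32285 mouse genes. Per the methods, reads were trimmed with Fastp and counted with SeekOneTools, and the labels name Seurat 4.0.0. The labels name a microwell kit and the methods droplet kits, and the named genome is human GRCh38, so that the mouse build used for counting is unclear. Positions were taken from GENCODE vM21 (GRCm38) by identifier (32158 matched).

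The cell rule, its members and the 32 gene lists were chosen with earlier results of these data known. UMIs were summed per gene over endothelial and over all other kept cells and divided by their total (CPM). Genes with at least 50 endothelial UMIs were compared, and 2-fold or more counted as a difference. Exact Poisson intervals were used for CPM, conditional binomial ones for ratios and Clopper-Pearson ones for shares. They cover counting error only, and cells are not replicates. For ranking and for the 2-fold calls, any count below 3 UMIs was set to 3. Printed ratios of MCT1-KO over FLOX use the counts as found, except that a count below 1 was set to 3 UMIs. The fixed rule for named genes took the rule genes, Slc16a1, list members, the 12 genes most raised in endothelium and the 10 highest and lowest by ratio. Doublets were kept. Taking out the 8% with the top Scrublet scores (scanpy 1.11.5) in each library, as 1 alternative, removed 5 of 64 and 3 of 90 endothelial cells. Python 3.11.15, numpy 2.4.6, scipy 1.17.1 and pandas 2.3.3 were used, and the code was tested on simulated counts. Alternatives for cell calling, the membership rule, doublets, keratin UMIs, free RNA, the CPM total, cell weights and thinning are given in the closing section. Values of some list members are not reported here.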

Additional observations from a re-analysis of the deposited data

Results flagged for a closer look

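Atf3, a stress-induced transcription factor, stood on opposite sides of the other kept cells in the 2 libraries. It was 1.45-fold of their level in FLOX endothelial cells (interval 1.34–1.58) and 0.856-fold in MCT1-KO ones (0.753–0.969). With 1 library a group this difference was not tested.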

How the results depend on the processing

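Of 222 values of the comparisons recomputed under 20 alternatives, 167 moved by less than their counting interval, or by less than 1.5 times for counts of genes. Of 466 values of named genes 384 did so, 74 moved and 8 turned direction, and the cause of these changes was not tested. Allowing up to 1 Ptprc UMI changed no endothelial cell, so that all values under it counted as unmoved in both sets. The heat shock (0.408 to 0.494), immediate-early (0.536 to 0.708) and interferon (0.474 to 0.825) ratios stayed below 1 throughout. With at least 2 UMIs from 2 rule genes (94 and 192 cells) the shares became 1.08% and 1.64%, 337 genes were higher in endothelium, and 218 were higher and 353 lower in MCT1-KO. The list ratios then became 0.494 (heat shock), 0.708 (immediate-early), 0.439 (tip), 0.678 (capillary), 0.836 (venous) and 0.474 (interferon). The tip cut was met by 83.0% and 64.6% of cells and the capillary cut by 75.5% and 74.0%, and Ankrd1 gave 0.706. With at least 6 UMIs from 4 genes the capillary ratio was 1.26, the tip cut was met by 98.3% of FLOX cells and Ankrd1 gave 0.181. Ranking from 200 UMIs left 140 genes higher and 18 lower in endothelium and 10 higher and 19 lower in MCT1-KO. A 3-fold limit left 33 genes lower in endothelium and 13 higher and 17 lower in MCT1-KO. After thinning, the tip cut was met by 72.6% and 66.3% of cells, the capillary cut by 77.4% and 83.1% and the venous cut by 14.5% and 31.3%. Without an upper gene limit, 117 genes were higher and 175 lower, and the ratios were 0.536 (immediate-early), 0.6003 (tip), 0.899 (capillary), 1.22 (venous) and 0.520 (interferon). Free RNA scaled by acinar genes was put at 28.2% and 7.05% of endothelial UMIs, and scaled by Lyz2, Tyrobp and Fcer1g at 5.92% and 4.74%. Subtracting the first gave 114 higher and 175 lower genes, 0.576 (immediate-early), 0.631 (tip), 0.948 (capillary) and 1.33 (venous), and left Prss2, Ctrb1, 2210010C04Rik and Clps at 3 UMIs or fewer in both libraries and so without a ratio, which this scaling itself brings about. Subtracting the second gave 59 higher and 98 lower genes, 0.779 (tip), 1.17 (capillary) and 1.57 (venous). Means of per-cell CPM gave 0.665 (immediate-early), 0.971 (tip), 1.11 (capillary) and 0.825 (interferon). Leaving out cells with keratin UMIs gave 0.456 (heat shock), 0.631 (immediate-early), 1.34 (capillary), 0.255 (Ankrd1) and 0.729 (Fst). Without likely doublets, and without cells with mural or red cell UMIs, Hbb-bs also had 3 UMIs or fewer in both libraries. Chosen after seeing the data, leaving out cells with mural or red cell UMIs gave 29 higher and 53 lower genes, 1.18 (tip), 1.29 (capillary) and 0.533 (interferon), with Ankrd1 at 0.0876, Fst 0.467 and S100a4 0.988. Also chosen after seeing the data, leaving out each gene's highest cell gave 0.214 for Ankrd1, 2.07 for Fst, 2.29 for S100a4 and 3.14 for Hbb-bs (FLOX at the floor). Leaving the barcodes removed by the gates out of the other kept cells, chosen likewise, put the smaller endothelial ratios of the 12 leading genes between 315 (Prex2) and 1371 (Gpihbp1). No paired analysis was possible because each group has 1 library, and for the same reason no library could be left out. At 349842 and 409137 endothelial UMIs, genes of a few UMIs leave ratios that the counts hardly bound.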

Other observations

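Further genes that were at least 2-fold higher in endothelial than in other kept cells in both libraries and at least 2-fold apart between the libraries were singled out after their values were seen. Lower in MCT1-KO was Nt5e (CD73), the surface enzyme that makes adenosine, with 52 UMIs in 12 FLOX cells and 17 in 16 MCT1-KO cells, 3.58-fold lower (interval 2.04–6.599) beside 2.23-fold in the other kept cells. Podxl, a sialomucin of the vessel lumen, gave 59 and 29 UMIs and was 2.38-fold lower (1.501–3.85), at 93.2-fold and 60.5-fold above the other kept cells. Bmp2 gave 45 and 20 UMIs and was 2.63-fold lower (1.52–4.70), beside 3.34-fold elsewhere. Ubd, a ubiquitin-like protein induced by inflammatory cytokines, gave 146 and 75 UMIs in 12 cells of each library, with 63 and 32 of them in 1 cell. Cxcl9 and Ubd were found together in 11 FLOX and 9 MCT1-KO cells, and Cxcl9 by itself in 22 and 16. Depth was not made equal, and this overlap was not read as a link.

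Higher in MCT1-KO was the efflux transporter Abcg2, with 30 UMIs in 21 FLOX cells and 102 in 48 MCT1-KO cells. Its level went from 85.8 to 249 CPM, a ratio of 2.91 (1.92–4.53) beside 0.757 in the other kept cells. Fkbp5, a target of glucocorticoids, gave 33 and 91 UMIs and a ratio of 2.36 (1.57–3.63), beside 2.47 in the other kept cells. The TGF-beta co-receptor Tgfbr3 gave 24 and 60 UMIs and a ratio of 2.14 (1.31–3.59).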
